A study of Mus musculus with 8 samples.

Results

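The receptors for the colony-stimulating factors, their ligand gene Csf1 and the related cytokine receptor genes Il7r and Il4ra were followed in RNA sequencing of mouse bone-marrow-derived macrophages. The 8 genes were taken by symbol from the count files (Csf1, Csf1r, Csf2ra, Csf2rb, Csf2rb2, Csf3r, Il7r and Il4ra), out of 17364 genes in all, and all 8 were abundant enough to be tested. One group of 4 libraries came from Sept2C111A mice, where, as the name of the allele says, alanine replaces a cysteine of septin 2, a GTP-binding protein of the cytoskeleton. The other 4 libraries came from wild-type (WT) mice. TNF-α at 30 ng/ml had been given to both groups for 24 h, and no group without TNF-α was analysed here. The labels do not say that the 4 libraries of a genotype came from separate mice or cultures, so p-values cover the spread among these libraries alone, and that spread may be technical. The growth factor in which the bone marrow cells were matured is not given in the sources used here.

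Macrophages live on a small set of growth factor receptors. CSF1R is the receptor tyrosine kinase through which CSF1 (M-CSF) and IL-34 keep macrophages alive and dividing. CSF2RA binds GM-CSF and signals with a beta chain encoded by Csf2rb, which is shared with the IL-3 and IL-5 receptors, and mice carry a close copy, Csf2rb2, whose product serves IL-3 only. CSF3R binds G-CSF and is best known in neutrophils. IL7R binds IL-7 together with the common gamma chain and TSLP together with CRLF2, and IL4RA is the signalling chain for IL-4 and IL-13, which turn macrophages towards alternative activation.

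2 of the 8 genes passed the test between the genotypes, at an adjusted p under 0.05, as 6.46% of all tested genes did. Il7r RNA was higher and Csf1 RNA was lower in Sept2C111A macrophages, and the other 6 did not pass. The promoters of Il7r and Csf1 are shown because these 2 genes passed the test. They are taken from RefSeq on the mouse build GRCm38.p6 (mm10) and run 5′ to 3′ on the gene's strand, from 250 bases before the annotated start to 50 bases after it, with the start as the promoter table has it. That start is the gene's 5′ end for Csf1, and for Il7r it is base 9529876, which lies 65 bases inside the gene's outermost annotated end. The Csf1 window is chr3:107760420-107760719 on the minus strand and the Il7r window is chr15:9529827-9530126 on the minus strand. Capitals mark the letters that matched one of the 5 motifs searched.
Csf1 promoter: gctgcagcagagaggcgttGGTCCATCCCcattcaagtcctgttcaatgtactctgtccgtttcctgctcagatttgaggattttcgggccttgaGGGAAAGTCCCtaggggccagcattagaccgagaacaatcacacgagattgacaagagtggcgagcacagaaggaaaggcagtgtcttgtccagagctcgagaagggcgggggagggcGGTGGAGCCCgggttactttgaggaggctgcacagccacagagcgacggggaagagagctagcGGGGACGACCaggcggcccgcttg
Il7r promoter: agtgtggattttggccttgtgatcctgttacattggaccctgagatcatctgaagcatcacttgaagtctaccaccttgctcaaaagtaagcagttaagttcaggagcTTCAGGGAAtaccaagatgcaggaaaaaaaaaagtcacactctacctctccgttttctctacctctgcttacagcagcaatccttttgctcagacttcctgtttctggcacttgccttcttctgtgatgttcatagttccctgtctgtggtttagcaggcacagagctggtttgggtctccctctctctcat

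Both strands were searched for the letters GAGGAA (core of PU.1 sites), TTCNNNGAA (STAT), TGANTCA (AP-1), GGG and CC with any 5 bases between them (NF-kB), and GAAA and GAAA with any 2 bases between them (interferon response). All 5 matches in the Csf1 window were to the NF-kB letters, and they began at -231, -155, -154, -37 and 27 relative to the start site. The matches at -155 and -154 lie on opposite strands and overlap, so they appear as 1 run of capitals. The single match in the Il7r window was to the STAT letters, at -142. Among 32851 promoters of the same length, 50.8% held the NF-kB letters and 8.3% the STAT letters. The PU.1 letters were in 28.3%, the AP-1 letters in 7.81% and the interferon response letters in 3.44% of them. Promoter windows were found for 6 of the 8 genes. Among the 4 not printed, the PU.1 letters occurred in Csf2ra, Csf2rb2 and Csf3r, the STAT letters in Csf2rb2, and the NF-kB letters in Csf2ra, Csf3r and Il4ra. A match is a run of letters and not a site shown to be bound.

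The deposited values are expected counts, the reads that a model assigns to each gene after sharing out those that match several genes. Totals ran from 19543973 to 21288521 per library, and the 8 genes drew 535 to 74326 reads each per library. Levels are given as CPM, a gene's reads per 1000000 reads of its library, after scaling each library by the trimmed mean of M values (TMM). Differences were tested with edgeR's quasi-likelihood test in 1 fit over 12462 genes, and a gene passed at a Benjamini-Hochberg adjusted p under 0.05. By this rule 6.46% of all tested genes passed in either direction, 3.43% higher and 3.03% lower in Sept2C111A, beside 1 of the 8 genes described here in each direction. The median log2 fold change of the 8 was 0.05, against 0.01 over all tested genes.

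Along principal component 1 of the log2 CPM values (45.1% of the variance), Sept2C111A libraries 2 and 3 lay at -28.2 and -36.6, apart from Sept2C111A libraries 1 and 4 at -0.866 and 1.97. The WT libraries lay between 11.2 and 19.4. Spread was wider among Sept2C111A libraries, with a biological coefficient of variation of 0.138, than among WT libraries, at 0.0604. Sept2 RNA itself (Septin2 in the files) averaged 188 ± 18.7 CPM in Sept2C111A and 226 ± 7.43 CPM in WT (SD, n = 4 each), with an edgeR adjusted p of 0.0627. An RNA level does not check an allele that changes 1 residue.

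**Figure D1:**
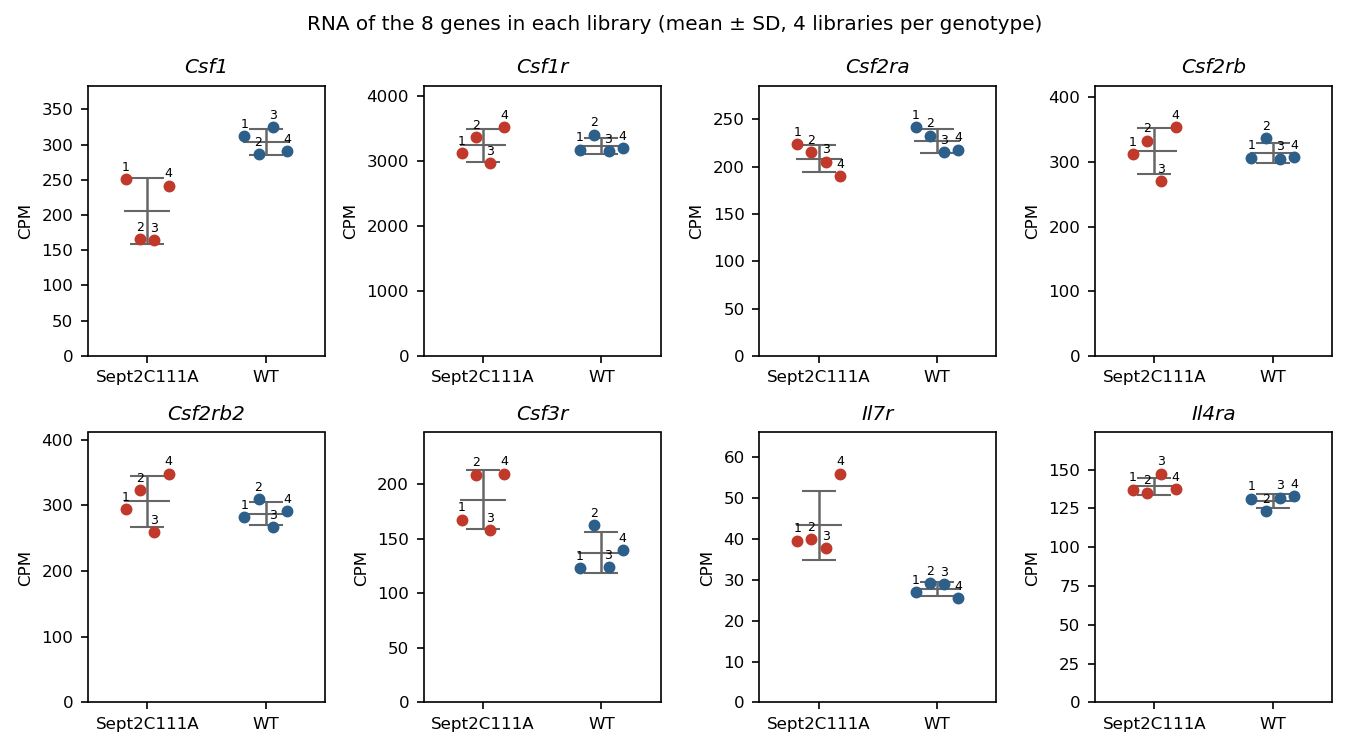
Normalized RNA level in CPM of the 8 genes in each of the 8 libraries, 1 panel per gene with its own axis from 0. Points are libraries, labelled by number, and bars give the mean and SD of 4 libraries. The Sept2C111A points lie wholly above WT for Il7r and Il4ra and wholly below WT for Csf1.

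Csf1, the ligand that macrophages and many stromal cells make, was lower in Sept2C111A macrophages. The gene lies at chr3:107741048-107760469 on mm10, on the minus strand. It reached 251, 166, 165 and 242 CPM in Sept2C111A libraries 1 to 4, against 312, 286, 325 and 291 CPM in WT libraries 1 to 4. Every Sept2C111A library lay below every WT library, and Sept2C111A libraries 2 and 3, the pair that stood apart above, were the lowest. The log2 fold change was -0.56 (SE 0.136, edgeR adjusted p = 0.0354), a change of -32.1% with a 95% confidence interval of -44.9% to -16.5%. In bulk RNA, fewer cells of a type and less RNA per cell cannot be told apart. Leaving out Sept2C111A libraries 2 and 3 together, an alternative chosen after seeing the data, gave a smaller log2 fold change of -0.30 with an edgeR adjusted p of 0.0322. The call was lost without any one of 6 libraries (Sept2C111A 2 or 3, or any WT library), at edgeR adjusted p values of 0.0513 to 0.116, and with library totals as the only scaling, at 0.0548.

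The summed level of the stromal cell markers was 5203, 4304, 4072 and 5109 CPM in Sept2C111A libraries 1 to 4, against 6332, 5158, 6584 and 6203 CPM in WT libraries 1 to 4. The 2 lowest sums were again those of Sept2C111A libraries 2 and 3, and the ranges of the genotypes overlapped slightly. Of 11 tested stromal markers out of 12 listed, 2 passed as lower in Sept2C111A, Col1a1 and Postn, 0 passed as higher and 9 did not pass, with a median log2 fold change of -0.38. Of the 11, 0 had a positive log2 fold change, 8 had an unadjusted p under 0.05, 6 passed by DESeq2 and 3 by limma voom. Col1a1, which encodes a chain of type I collagen, averaged 1545 ± 168 CPM in Sept2C111A and 2056 ± 257 CPM in WT (SD, n = 4 each, edgeR adjusted p = 0.0453). Its call was lost without Sept2C111A library 2 or 3 or WT library 1, 3 or 4, at adjusted p values of 0.0715 to 0.152, and without Sept2C111A libraries 2 and 3 together (0.169). Postn, the gene of the matrix protein periostin, averaged 197.5 ± 21.4 CPM in Sept2C111A and 260.2 ± 12.6 CPM in WT (SD, n = 4 each, edgeR adjusted p = 0.0180), and its call was lost without Sept2C111A library 2 or WT library 1, 3 or 4 (0.0560 to 0.0689). No stromal marker was at 0 in every library. The part of stromal cells in the Csf1 difference was not tested. The summed macrophage markers were 17704 to 19631 CPM in Sept2C111A and 20206 to 21817 CPM in WT, and all 9 averaged at least 1 CPM. Most of each sum, and of the gap between the genotypes, was Lyz2, at 12366 ± 897 CPM in Sept2C111A and 14365 ± 498 CPM in WT (SD, n = 4 each). The median log2 fold change of the 9 was only -0.07, and 4 of them had a positive one. None of the 9 passed singly by edgeR, 6 had an unadjusted p under 0.05, 2 passed by DESeq2 and 0 by limma voom. Of those 6, Adgre1, Itgam, Lyz2 and Cd14 were lower in Sept2C111A, and Cd68 and Mertk were higher.

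The genes whose pattern over the 8 libraries lay nearest to that of Csf1 were Nexn, Ccn4 and Cald1. Likeness was the root-mean-square difference of log2 CPM after centring each gene on its mean, over 10656 genes of at least 2 CPM. Nexn stood at 0.044, and Ccn4 and Cald1 at 0.048 each, where the deviations of Csf1 from its own mean had a root mean square of 0.360. Nexn encodes nexilin and Cald1 encodes caldesmon, both actin-binding proteins, and Ccn4 encodes a secreted matrix-associated protein. Cald1 was at 156 ± 36.6 CPM in Sept2C111A and 232 ± 15.3 CPM in WT (SD, n = 4 each), with an edgeR adjusted p of 0.0370, while Nexn and Ccn4 did not pass (0.0635 and 0.0530). Like Csf1, all 3 were lowest in Sept2C111A libraries 2 and 3. The Cald1 call was lost, at edgeR adjusted p values of 0.0629 to 0.118, without any one of the 6 libraries that also decided the Csf1 call, and with library totals only (0.0551).

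**Figure D2:**
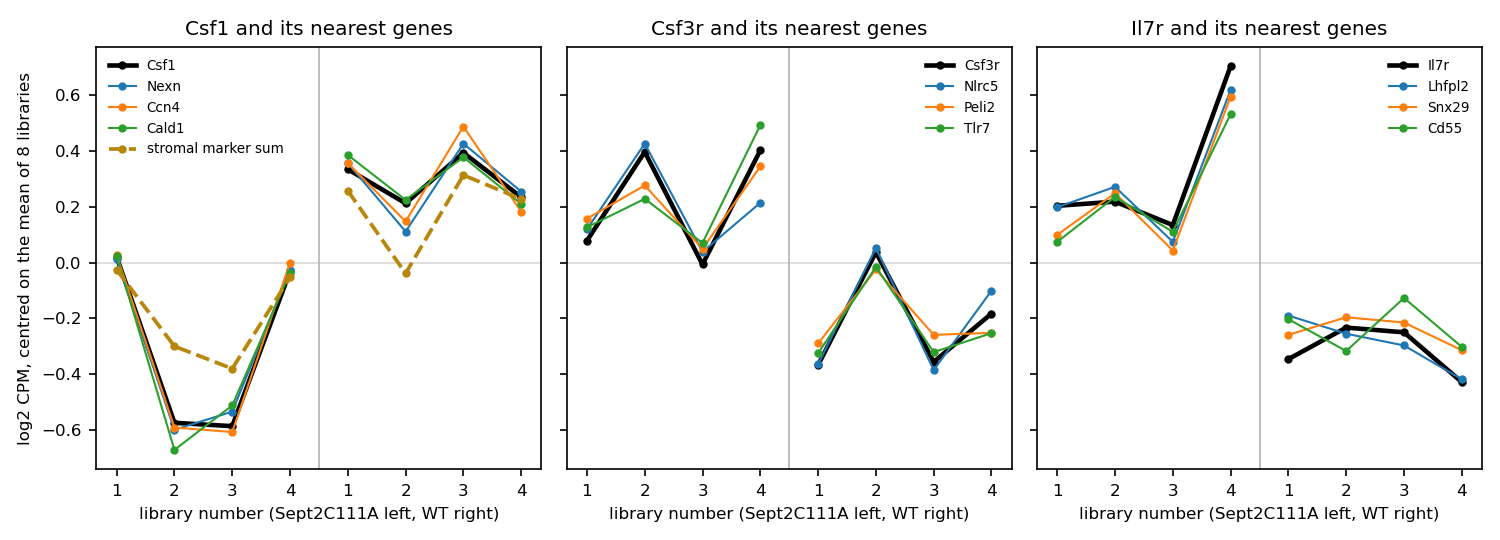
Log2 CPM of Csf1, Csf3r and Il7r (black) and of the 3 genes nearest to each in pattern, centred on the mean of 8 libraries, with the Sept2C111A libraries left and the WT libraries right of the grey line. The dashed line in the Csf1 panel is the summed stromal marker level. Csf1 is lowest in Sept2C111A libraries 2 and 3, and Il7r is highest in Sept2C111A library 4.

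Csf1r, the receptor for the Csf1 product, was the most abundant of the 8 genes and did not pass. It stood at 3111, 3365, 2957 and 3515 CPM in Sept2C111A libraries 1 to 4, against 3171, 3401, 3144 and 3187 CPM in WT libraries 1 to 4. The groups overlapped over most of their range. The change was 0.354%, with a 95% confidence interval of -10.4% to 12.4% (log2 fold change 0.01, SE 0.0744, edgeR adjusted p = 0.975). On mm10 the span of Csf1r overlaps those of Hmgxb3 on the opposite strand and Mir6983 on its own strand. Whether their exons overlap was not checked, and the strand setting of the counting is not given in the sources used here. It is therefore not known whether reads of these genes were mixed.

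Set against its receptor within each library, which removes the scaling between libraries, the log2 ratio of Csf1 to Csf1r reads was -3.63, -4.34, -4.17 and -3.86 in Sept2C111A libraries 1 to 4, against -3.35, -3.57, -3.28 and -3.45 in WT libraries 1 to 4. The 2 sets of values did not overlap. The means were -4.00 ± 0.315 in Sept2C111A and -3.41 ± 0.129 in WT (SD, n = 4 each), a difference of -0.59. The exact two-sided permutation test gave p = 0.0286, the smallest that 4 against 4 libraries allow, and 0.0857 after adjustment over the 3 ratios tested. The difference was therefore not past the threshold. With so few libraries, a ratio that is alone at the smallest p cannot pass this adjustment, so the adjusted value does not decide either way.

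The 3 GM-CSF and IL-3 receptor chains among the 8 genes did not pass. Csf2ra, the alpha chain that recognises GM-CSF (chr19:61217191-61228461 on mm10, minus strand), stood at 224, 215, 205 and 189.7 CPM in Sept2C111A libraries 1 to 4, against 242, 233, 215 and 218 CPM in WT libraries 1 to 4. Its lowest values were in Sept2C111A, but the groups overlapped. The change was -8.07%, with a 95% confidence interval of -17.3% to 2.19% (edgeR adjusted p = 0.304). Csf2rb, the shared beta chain, averaged 317 ± 35.9 CPM in Sept2C111A and 314 ± 15.4 CPM in WT (SD, n = 4 each), a change of 0.972% with an interval of -11.2% to 14.8% (edgeR adjusted p = 0.939). Csf2rb2 averaged 306 ± 38.4 CPM in Sept2C111A and 287 ± 17.6 CPM in WT (SD, n = 4 each), a change of 6.45% with an interval of -7.33% to 22.3% (edgeR adjusted p = 0.574). Both beta chains were lowest in Sept2C111A library 3 and highest in Sept2C111A library 4.

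The beta chain genes are neighbours on chromosome 15 of mm10, Csf2rb at 78325800 to 78351001 on the plus strand and Csf2rb2 at 78282507 to 78305721 on the minus strand. Their longest transcripts hold 4900 bases for Csf2rb and 4740 bases for Csf2rb2. Of all stretches of 100 bases, 7.0% of those in Csf2rb and 7.2% of those in Csf2rb2 occur unchanged in the other transcript, so the division of reads between them is uncertain in those stretches. For 50 bases the shares are 18.4% of Csf2rb and 19.0% of Csf2rb2, and for 150 bases 3.5% of Csf2rb and 3.6% of Csf2rb2, and the read length is not given in the sources used here. Csf2rb2 took 48.5%, 49.2%, 49.0% and 49.6% of the beta chain reads in Sept2C111A libraries 1 to 4, against 47.9%, 47.8%, 46.7% and 48.6% in WT libraries 1 to 4. Sept2C111A library 1 fell just below WT library 4, and the other 3 Sept2C111A libraries lay above every WT library. The means were 49.0% ± 0.459 in Sept2C111A and 47.7% ± 0.798 in WT (SD, n = 4 each), a difference of 1.31 percentage points with an exact two-sided permutation p of 0.0571 (0.0857 adjusted over the 3 ratios). The log2 ratio of Csf2ra to Csf2rb reads averaged -0.60 ± 0.222 in Sept2C111A and -0.47 ± 0.0866 in WT (SD, n = 4 each). That difference of -0.13 had an exact two-sided permutation p of 0.40.

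Csf3r, the G-CSF receptor gene (chr4:126023441-126044975 on mm10, plus strand), just missed the threshold. It reached 167, 209, 158 and 209.5 CPM in Sept2C111A libraries 1 to 4, against 123, 163, 124 and 139.6 CPM in WT libraries 1 to 4. The groups overlapped only where Sept2C111A library 3 lay below WT library 2. The change was 35.4%, with a 95% confidence interval of 13.2% to 61.8% (log2 fold change 0.44, SE 0.117), and the edgeR adjusted p of 0.0509 missed the threshold. It passed in 8 of 17 alternatives, among them DESeq2 (adjusted p = 0.00932) and edgeR with no filter on low counts (0.0390), and its adjusted p ran up to 0.159 in the others. Neutrophil markers, which would mark the cells best known for this receptor, summed to 9.36 to 14.99 CPM in Sept2C111A and 9.56 to 13.8 CPM in WT. Ly6g, Elane and Mpo had at most 1 read in any library. Of 12 listed markers 5 were tested, 3 with a positive log2 fold change, and 0 passed by edgeR, DESeq2 or limma voom. The 2 with an unadjusted p under 0.05 went opposite ways. Ngp averaged 1.13 ± 0.805 CPM in Sept2C111A and 0.474 ± 0.204 CPM in WT (SD, n = 4 each, edgeR adjusted p = 0.164). Mmp8, the most abundant of the list, averaged 5.72 ± 0.777 CPM in Sept2C111A and 7.50 ± 1.68 CPM in WT (SD, n = 4 each, edgeR adjusted p = 0.168). The nearest genes in pattern were Nlrc5 at 0.077, Peli2 at 0.080 and Tlr7 at 0.083, where the deviations of Csf3r itself had a root mean square of 0.278. Tlr7, which encodes a receptor for single-stranded RNA, was at 139 ± 18.8 CPM in Sept2C111A and 100.9 ± 10.6 CPM in WT (SD, n = 4 each, edgeR adjusted p = 0.0258). Its call was lost without Sept2C111A library 2 or WT library 1, 3 or 4, at adjusted p values of 0.0683 to 0.0984, and with library totals only (0.0744).

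Il7r, the receptor chain shared by IL-7 and TSLP, was higher in Sept2C111A macrophages. The gene lies at chr15:9506159-9529941 on mm10, on the minus strand. It drew 837, 755, 742 and 1185 reads in Sept2C111A libraries 1 to 4, against 567, 627, 613 and 535 reads in WT libraries 1 to 4. As CPM these were 39.6, 40.0, 37.7 and 56.0 in Sept2C111A and 27.0, 29.2, 28.9 and 25.5 in WT. Every Sept2C111A library lay above every WT library, and Sept2C111A library 4 stood well above its 3 companions. The change was 56.6%, with a 95% confidence interval of 30.5% to 88.0% (log2 fold change 0.65, SE 0.12, edgeR adjusted p = 0.0112). Il7r passed in all 17 alternatives, with adjusted p values of 4.6e-05 to 0.0451 and log2 fold changes of 0.50 to 0.79. The lowest fold change, 0.50, was the one without Sept2C111A library 4.

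Lymphoid markers were examined beside Il7r because the gene is best known in lymphocytes. The T cell markers summed to 29.7 to 36.5 CPM in Sept2C111A and 25.2 to 27.9 CPM in WT, without overlap. On average, most of the sum and of the gap between the genotypes was the single gene Cd4. Cd28, the next most abundant, averaged 11.1 ± 0.727 CPM in Sept2C111A and 10.2 ± 0.787 CPM in WT (SD, n = 4 each, edgeR adjusted p = 0.465). Cd8a averaged 0.487 CPM in Sept2C111A and 0.602 CPM in WT. Cd4 passed as higher (21.1 ± 2.12 CPM in Sept2C111A and 14.5 ± 0.563 CPM in WT, SD, n = 4 each, edgeR adjusted p = 0.00505), and the other 3 tested T cell markers did not. Cd3d had at most 1 read and Cd3g at most 2 reads in any library, where 3 reads correspond to 0.141 to 0.154 CPM before TMM scaling. Cd3e and Trac were looked for, but the count data held no gene under these symbols. B cell markers summed to 10.1 to 13.9 CPM in Sept2C111A and 10.99 to 12.5 CPM in WT, with Ms4a1 at no more than 1 read in any library. On average, most of this sum was Cd79b, at 8.41 ± 2.31 CPM in Sept2C111A and 7.71 ± 1.16 CPM in WT (SD, n = 4 each, edgeR adjusted p = 0.518). Ebf1, the other tested B cell marker, was lower in Sept2C111A, at 2.53 ± 0.824 CPM against 3.99 ± 0.687 CPM in WT (SD, n = 4 each). Its edgeR p was 0.0159 before adjustment and 0.111 after. Markers of innate lymphoid and NK cells summed to 1.53 to 2.60 CPM in Sept2C111A and 2.00 to 3.25 CPM in WT.

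The nearest genes in pattern to Il7r were Lhfpl2 at 0.071, Snx29 at 0.083 and Cd55 at 0.115, where the deviations of Il7r itself had a root mean square of 0.357. Lhfpl2, a gene for a membrane protein, was at 105 ± 17.8 CPM in Sept2C111A and 69.8 ± 4.59 CPM in WT (SD, n = 4 each, edgeR adjusted p = 0.0104). Cd55 encodes a surface inhibitor of complement. All 3 were highest in Sept2C111A library 4.

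Il4ra, the chain for IL-4 and IL-13 (chr7:125552271-125579474 on mm10, plus strand), stood at 137, 135, 147 and 137 CPM in Sept2C111A libraries 1 to 4, against 131, 123, 132 and 133 CPM in WT libraries 1 to 4. The values did not overlap, but the change was only 7.19%, with a 95% confidence interval of -1.74% to 16.9% (edgeR adjusted p = 0.302). Across all tested genes, 16.9% had libraries that did not overlap between the genotypes (8.47% with Sept2C111A higher and 8.47% with it lower), beside 3 of the 8 genes described here (Csf1, Il7r and Il4ra). The span of an antisense gene model, Gm44876, overlaps that of Il4ra on mm10. Whether exons of the pair overlap was not checked, and reads of any shared exon cannot be told apart without strand.

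The genes nearest in pattern to Csf1r were Vti1a, Psme4 and Fbxo42, all within 0.025, and those nearest to Csf2ra were Max, Mocs1 and Dapp1. Zswim8 and Tut7 were among the 3 nearest to Csf2rb, and Ndst2, Wrn and Fbrsl1 nearest to Csf2rb2. For Il4ra they were Vps18, Smpd1 and Tmem9b.

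**Figure D3:**
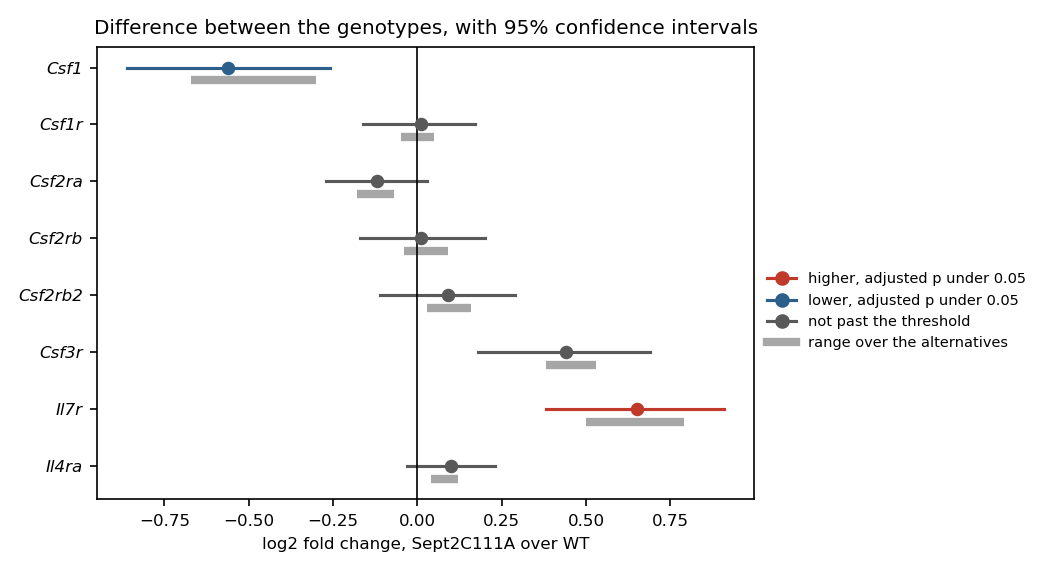
Log2 fold change of each of the 8 genes, Sept2C111A over WT, with its 95% confidence interval (thin line) and the range over 17 alternative settings (grey bar under it). Il7r lies at 0.65 and Csf1 at -0.56, both past the threshold, and Csf3r lies at 0.44 with an adjusted p of 0.0509.

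Levels of different genes were compared as CPM per kilobase of transcript, with the median length of each gene's basic protein-coding transcripts in GENCODE. The order was the same in both genotypes: Csf1r, Csf2ra, Csf1, Csf2rb2, Csf2rb, Csf3r, Il4ra and Il7r. Csf1r stood far above the rest, at 755 ± 58.3 CPM per kb in Sept2C111A and 753 ± 27.6 CPM per kb in WT (SD, n = 4 each), rank 132 in Sept2C111A and rank 118 in WT among 12175 genes with a length. Csf2ra followed at 115 ± 8.14 CPM per kb in Sept2C111A and 125 ± 6.92 CPM per kb in WT. Il7r was lowest, at 12.3 ± 2.41 CPM per kb in Sept2C111A and 7.85 ± 0.490 CPM per kb in WT, rank 4791 in Sept2C111A and rank 6096 in WT.

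The middle of the order was less sharp. Csf1 stood at 79.9 ± 18.2 CPM per kb in Sept2C111A, where its libraries overlapped those of Csf2rb2 (75.4 ± 9.46), and at 118 ± 6.97 CPM per kb in WT, where they overlapped those of Csf2ra. Csf2rb2 and Csf2rb overlapped in both genotypes. Csf2rb also overlapped Csf3r in Sept2C111A libraries, where Csf3r stood at 55.9 ± 8.17 CPM per kb, against 41.3 ± 5.59 CPM per kb in WT. Il4ra lay clear of its neighbours in both genotypes, at 26.5 ± 1.05 CPM per kb in Sept2C111A and 24.7 ± 0.833 CPM per kb in WT. With each gene's longest transcript in place of the median, Csf1 moved to 49.3 CPM per kb and the sixth place in Sept2C111A, against 72.7 CPM per kb and the third place in WT.

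**Figure D4:**
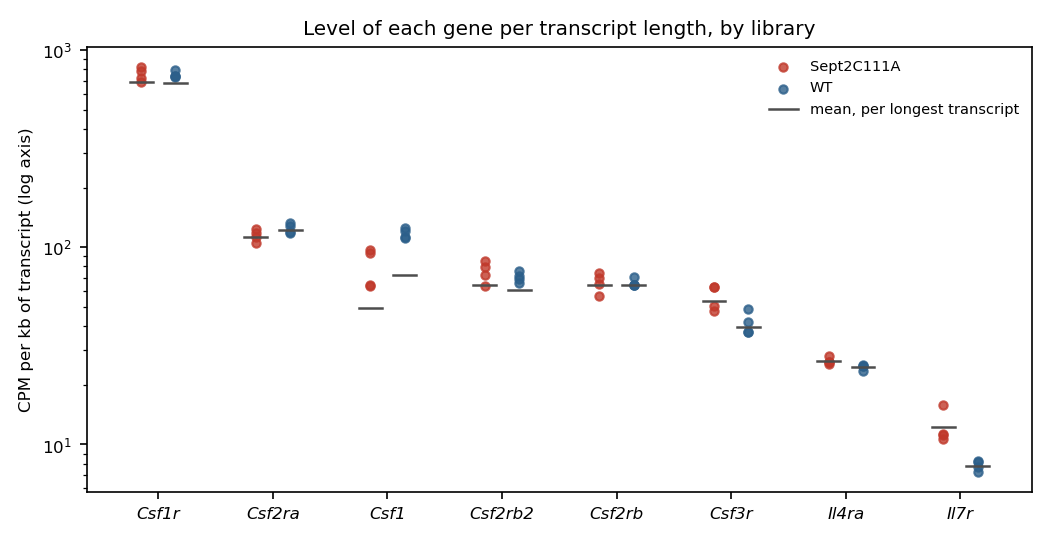
Level of the 8 genes in CPM per kilobase of median transcript length, on a log axis, with 1 point per library and Sept2C111A left of WT. Grey lines give the mean per kilobase of the longest transcript. Csf1r lies at about 755 in Sept2C111A and 753 in WT, and Il7r lowest at 12.3 in Sept2C111A and 7.85 in WT.

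Genes that work with these receptors were listed in 8 groups holding 102 genes, of which 83 were tested. Among these, 3 passed as higher and 7 as lower in Sept2C111A, 12% together, beside the 6.46% of all tested genes. The lists were chosen with earlier results of these data known, so setting these shares side by side is not a test. Of the ligands other than Csf1, 2 of 9 listed genes were tested and 0 passed by edgeR, DESeq2 or limma voom, with 0 at an unadjusted p under 0.05. Il34, the other CSF1R ligand, averaged 0.784 ± 0.232 CPM in Sept2C111A and 1.02 ± 0.126 CPM in WT (SD, n = 4 each, edgeR adjusted p = 0.405). Csf2 and Csf3, which encode GM-CSF and G-CSF and are named after their values were seen, had at most 2 reads in any library. Of the partner chains, 5 of 7 were tested and 0 passed by any of the 3 tools, with 0 at an unadjusted p under 0.05. Il2rg, the common gamma chain that pairs with IL7R and IL4RA, averaged 300.6 ± 40.1 CPM in Sept2C111A and 272 ± 15 CPM in WT (SD, n = 4 each, edgeR adjusted p = 0.352).

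Among 13 inhibitors of cytokine receptor signalling, Socs3 passed as lower and 12 did not pass. Socs3, whose product blocks gp130-type receptors and the G-CSF receptor, had the largest change in the 8 lists, with a log2 fold change of -1.17 (SE 0.142, edgeR adjusted p = 0.00109), and passed in all 17 alternatives. Of 18 adaptors, kinases and the sheddase of CSF1R, 0 passed by edgeR or limma voom, 3 passed by DESeq2 and 6 had an unadjusted p under 0.05. Their most abundant gene, Tyrobp, which encodes the DAP12 adaptor, averaged 1084 ± 185 CPM in Sept2C111A and 862 ± 46.3 CPM in WT (SD, n = 4 each, edgeR adjusted p = 0.0923).

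Of 14 tested transcription factors of the myeloid lineage, Irf8 passed as higher, Ets2 and Egr2 passed as lower, and 11 did not pass. Irf8, a factor of the monocyte and dendritic cell lines, averaged 157 ± 14.9 CPM in Sept2C111A and 115.5 ± 3.5 CPM in WT (SD, n = 4 each, log2 fold change 0.44, SE 0.0743, edgeR adjusted p = 0.00701). Ets2, which is known to be activated downstream of CSF1R, averaged 109.6 ± 13.1 CPM in Sept2C111A and 156 ± 10.2 CPM in WT (SD, n = 4 each, log2 fold change -0.51, SE 0.0895, edgeR adjusted p = 0.00837). Both passed in all 17 alternatives. Egr2, a factor induced by growth factors and IL-4, averaged 4.61 ± 0.95 CPM in Sept2C111A and 7.80 ± 1.33 CPM in WT (SD, n = 4 each, edgeR adjusted p = 0.0235). The Egr2 call was lost without Sept2C111A library 2 or WT library 1 or 3, at adjusted p values of 0.0540 to 0.0773, and without Sept2C111A libraries 2 and 3 together (0.110).

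Of 13 genes of growth and survival downstream of such receptors, 3 passed as lower, 0 as higher and 10 did not pass, with a median log2 fold change of -0.27. In either direction, 8 had an unadjusted p under 0.05, 6 passed by DESeq2 and 3 by limma voom, and 3 of the 13 had a positive log2 fold change. Mki67, the marker of dividing cells, averaged 28.9 ± 3.64 CPM in Sept2C111A and 48.4 ± 1.46 CPM in WT (SD, n = 4 each, log2 fold change -0.74, SE 0.0869, edgeR adjusted p = 0.000876). Ccnd2, the gene of cyclin D2, averaged 75.5 ± 10.8 CPM in Sept2C111A and 113.5 ± 8.39 CPM in WT (SD, n = 4 each, log2 fold change -0.59, SE 0.0995, edgeR adjusted p = 0.00707). Both passed in all 17 alternatives. Bcl2a1a, a survival gene with near-identical copies between which reads may be split, averaged 7.26 ± 0.713 CPM in Sept2C111A and 12.1 ± 2.82 CPM in WT (SD, n = 4 each, edgeR adjusted p = 0.0208). Its call was lost without Sept2C111A library 2 or WT library 3 or 4, at adjusted p values of 0.0540 to 0.0685, and without Sept2C111A libraries 2 and 3 together (0.0697). Mcl1, the most abundant gene of this list, is named after its values were seen. This survival gene went the other way without passing, at 1091 ± 106 CPM in Sept2C111A and 919 ± 22.3 CPM in WT (SD, n = 4 each, edgeR adjusted p = 0.0777).

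Of 8 tested IL-4 response genes out of 15 listed, Clec7a passed as higher, Ccl22 passed as lower and 6 did not pass. Clec7a, which encodes the beta-glucan receptor dectin 1, averaged 89.3 ± 4.30 CPM in Sept2C111A and 61.4 ± 6.84 CPM in WT (SD, n = 4 each, log2 fold change 0.54, SE 0.0818, edgeR adjusted p = 0.00386), and passed in all 17 alternatives. Ccl22, a chemokine gene, averaged 2.84 ± 0.450 CPM in Sept2C111A and 5.26 ± 1.32 CPM in WT (SD, n = 4 each, edgeR adjusted p = 0.0294), with overlapping groups. The Ccl22 call was lost without Sept2C111A library 3 or WT library 2, 3 or 4, at adjusted p values of 0.0537 to 0.108, and without Sept2C111A libraries 2 and 3 together (0.0613). Without Sept2C111A libraries 2 and 3, where 3.86% of all tested genes passed, the counts of called genes in 4 of the lists were 1 for the inhibitors, 3 for the transcription factors, 2 for growth and survival and 1 for the IL-4 response.

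**Figure D5:**
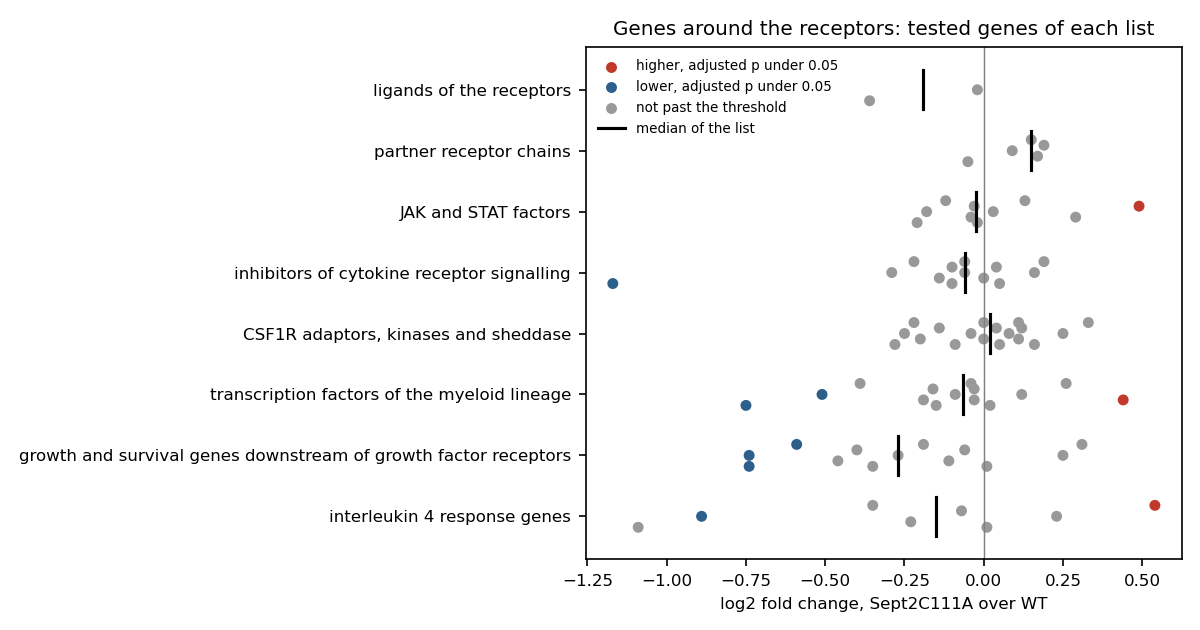
Log2 fold change, Sept2C111A over WT, of each tested gene in 8 lists of genes that work with the receptors, with the list median as a black line. Red points passed as higher and blue points as lower in Sept2C111A. The lowest point is Socs3 at -1.17, and the growth and survival list has a median of -0.27.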

How the data were processed

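RNA sequencing covered 8 libraries of TNF-treated bone-marrow-derived macrophages, 4 Sept2C111A and 4 WT, grouped by the sample labels. The authors deposited expected counts per gene symbol for each library. Per the submitters' processing notes the tools included RSEM 1.3.1, Bowtie2 and DESeq2 1.4.5, on build mm10, with no role given for each, and mRNA was enriched on oligo(dT) beads per the labels' protocols. The annotation, the strand setting and any filter were not given in the sources used here. Every per-library count column was used. The 3-read floor was 0.141 to 0.154 CPM and covers counting error only.

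Expected counts were rounded to whole numbers, genes were filtered with filterByExpr at a minimum count of 10, and TMM factors were computed. The genotypes were compared with edgeR 4.0.16 (R 4.3.3) by its two-sided quasi-likelihood F test, with Benjamini-Hochberg adjustment over 12462 genes and a threshold of 0.05. The SE is the size of the log2 fold change over the root of its F value, and 95% confidence intervals are built from it with 11 degrees of freedom. These are the total of the test, the residual ones plus those borrowed from the other genes. The intervals hold the spread between libraries. Ratios within a library were compared by exact permutation. The members and lists were chosen with earlier results of these data known. All 8 members are named. Some genes that the naming rule takes are not reported here. Each related list gives up to 3 called genes with the smallest adjusted p, or its most abundant tested gene where none was called. Each member also gives the 3 nearest genes in pattern, on log2 CPM with a prior count of 2. Positions come from RefSeq GRCm38.p6. In each of 28 pairs of libraries the counts differed by a mean chi-square per gene of 4.26 or more, so none was a copy of another. The fit was run on simulated data that had the same spread in both genotypes, so the unequal spread seen here was not covered. The 17 alternatives covered scaling, filters, DESeq2 1.42.0, limma 3.58.1 voom, a robust spread, a replicate block and libraries left out.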

Additional observations from a re-analysis of the deposited data

Results flagged for a closer look

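In 22 groups of 4 libraries, 4 held a library far from its 3 companions, by a gap that passed Dixon's 95% criterion for 4 values, where chance gives about 1 in 20. Sept2C111A library 4 was far above its companions for Il7r, at 56.0 CPM. WT library 2 was far above its companions for Csf1r, at 3401 CPM, and for Csf2rb, at 337 CPM. WT library 2 was far below its companions for Il4ra, at 123 CPM.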

How the results depend on the processing

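Il7r passed in all 17 alternatives, Csf1 in 10 and Csf3r in 8, and Csf2ra, Csf2rb2 and Il4ra kept their direction in every one without passing. The count of all genes called, 805, became 1450 with DESeq2, 494 with the replicate block, 492 without Sept2C111A libraries 2 and 3, and 266 to 2077 with 1 library left out. Of the 8 members, 2 were called higher with DESeq2, with a filter of 1 CPM in 4 libraries, with no filter and with the replicate block, Csf3r joining Il7r, and 1 to 2 with 1 library left out. Members called lower numbered 0 with library totals as the only scaling and 0 to 1 with 1 library left out. Related genes called numbered 20 with DESeq2 and 6 to 20 with 1 library left out. The log2 fold changes near 0 changed sign with library totals only, Csf1r to -0.05 and Csf2rb to -0.04, and with 1 library left out ran from -0.03 to 0.05 for Csf1r and from -0.04 to 0.09 for Csf2rb.

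With 1 library left out, the Csf2rb2 share differed by 0.942 to 1.58 percentage points and the log2 ratio of Csf1 to Csf1r by -0.71 to -0.48. Per longest transcript, 5 of the 8 members kept their place in the order of levels in Sept2C111A. Libraries with the same replicate number did not deviate together in every pair (correlations 0.137, 0.096, -0.023 and -0.237), and library 1 but not every library matched its own number best. The block also ended the calls of Col1a1 (edgeR adjusted p = 0.0555) and Ccl22 (0.0562). The causes of these shifts were not tested. With 4 libraries per genotype the exact tests cannot fall below p = 0.0286.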
